A study of Mus musculus with 31 samples.

Results

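The chromatin of mouse lung adenocarcinomas that had lost the transcription factor Nkx2-1 was described by overlaying 4 histone marks in a fixed grid of 200 bp bins on chromosomes 1 to 19. Each bin was placed in 1 of 16 combinations by which of H3K27ac, H3K4me1, H3K4me3 and H3K27me3 islands covered it, an island being a stretch that the authors' caller found to hold more reads than the background. Of 12030740 bins, 3722501 carried at least 1 mark, which is 744.5 Mb or 30.9% of the 2406 Mb that were overlaid. The members of each combination are bins, so covered length is their count.

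The study profiled tumors by chromatin immunoprecipitation and sequencing (ChIP-seq) in mice that the labels give as 129/B6 mixed and as 4 to 7 months old. Tumors were labelled Nkx2-1-positive or Nkx2-1-deleted, and the 4 histone marks and Foxa1/2 binding were measured in each, while Nkx2-1 binding was measured in positive tumors. Each histone group held 1 male and 1 female mouse, the Foxa1/2 libraries came from 2 females for deleted and 2 males for positive tumors, and both Nkx2-1 libraries were from males. For Foxa1/2, tumor type and sex therefore cannot be told apart. The protocols name intratracheal virus and tamoxifen without saying which animal had which, and the sources used here do not give the tumor-initiating genotype of each sample. Whole tumors were used, which also hold stromal and immune cells.

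The pair of files deposited for a group held the same values. Each group is therefore 1 merged list, no value has a replicate error and no p-value could be computed. Intervals below are 95% intervals, exact Poisson for summits per Mb and Wilson for shares. They cover counting error only, and neighbouring bins are not independent. The number of chromosomes out of 19 that show an order is given beside the main comparisons, as a description. Reads inside islands came to 30.7 M for H3K27ac, 29.4 M for H3K4me1, 19.2 M for H3K4me3 and 19.3 M for H3K27me3 in deleted tumors, against 45.04, 35.3, 28.3 and 17.6 M in positive tumors. They move both with sequencing depth and with the extent of a mark, and total reads per library were not analysed here. For H3K27ac, H3K4me1 and H3K4me3, which had fewer reads in deleted tumors, a mark absent from a deleted-tumor bin can therefore not be told apart from a mark missed at lower depth. H3K27me3 had more reads in deleted tumors. H3K27me3 found there only can likewise not be told apart from H3K27me3 missed in positive tumors. Per the labels, an input library served both an Nkx2-1 library and male positive-tumor histone libraries.

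H3K4me3 is laid down at promoters, and H3K4me1 at enhancers and at the edges of promoters. H3K27ac is found where either kind of element is active, and H3K27me3 is the mark of Polycomb repression. Acetylation and methylation of the same lysine exclude each other on one histone tail, so islands of H3K27ac and H3K27me3 over the same bin must come from different tails. Whether those tails lay in different nucleosomes, alleles, cells or mice cannot be told apart in pooled tumors. Nkx2-1 is a homeodomain factor of lung epithelium, and Foxa1 and Foxa2 are forkhead factors that can bind closed chromatin and mark endodermal enhancers.

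Most of the marked genome carried H3K27me3 alone, and most of the rest was built from H3K4me1. H3K27me3 alone covered 414.2 Mb, or 55.6% of all marked bins. H3K4me1+H3K27ac, the usual pair of active enhancers, covered 127.6 Mb. H3K4me1 alone covered 86.6 Mb, H3K4me1+H3K4me3+H3K27ac covered 48.6 Mb and H3K27ac alone covered 29.1 Mb. The other 10 combinations came to between 0.281 Mb (H3K4me3+H3K27me3) and 12.6 Mb (H3K4me1+H3K27me3). A single mark covered 530.3 Mb, and all 4 marks together covered 5.21 Mb.

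H3K4me3 was nearly always under H3K4me1 in these lists. The file names give gaps of up to 600 bp joined within H3K4me1 islands, so a shorter dip in H3K4me1 is not seen. How much of the overlap follows from that was not tested. Of its 62.5 Mb, 97.2% also lay under H3K4me1 and 87.9% under H3K27ac, and H3K4me3 alone held only 0.337 Mb. H3K27ac was under H3K4me1 over 84.5% of its length, while 64.0% of H3K4me1 was under H3K27ac. H3K27me3 and the active marks mostly avoided each other. H3K27me3 covered 18.6% of the span, but 7.77% of the H3K27ac length and 9.87% of the H3K4me1 length. H3K4me3 was less separated, with 15.4% of its length under H3K27me3. That overlap of H3K4me3 and H3K27me3, the pair of marks found together at bivalent promoters, came to 9.65 Mb, and 5.21 Mb of it also carried both H3K4me1 and H3K27ac.

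Several combinations held a different length in positive tumors. H3K4me1+H3K4me3+H3K27ac covered 48.6 Mb in deleted against 81.2 Mb in positive tumors, and H3K27ac alone 29.1 against 53.0 Mb. H3K4me1+H3K4me3 covered 3.17 against 6.68 Mb. In the other direction, H3K4me1+H3K27me3 covered 12.6 Mb in deleted and 8.21 Mb in positive tumors, a ratio of 1.54, and H3K4me1 alone 86.6 against 77.5 Mb. H3K4me1+H3K27ac differed little in total (127.6 against 131.8 Mb), but only 59.98% of its deleted-tumor length had held the same pair in positive tumors. A further 21.0% had been H3K4me1+H3K4me3+H3K27ac. By contrast, 93.2% of the deleted-tumor length of H3K4me1+H3K4me3+H3K27ac had already held those marks. Of the H3K4me1+H3K27me3 length, 29.1% had held the same pair, 22.0% had been H3K27me3 alone and 11.8% had been H3K4me1+H3K4me3+H3K27me3. Reads inside islands were fewer in deleted tumors for H3K27ac, H3K4me1 and H3K4me3, and their part in these differences was not tested.

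**Figure D1:**
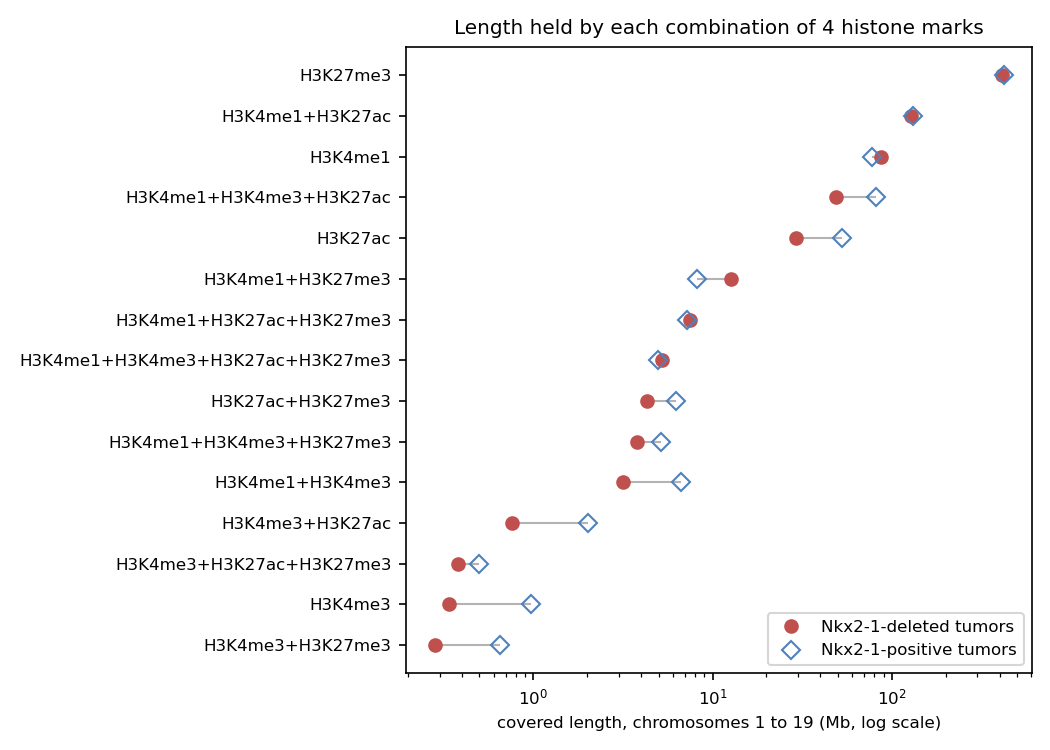
Covered length of the 15 marked combinations on chromosomes 1 to 19 (Mb, log scale) in Nkx2-1-deleted tumors (filled circles) and Nkx2-1-positive tumors (open diamonds), 1 merged list per mark and tumor type. H3K27me3 alone is longest in both, and H3K4me1+H3K4me3+H3K27ac shows 48.6 Mb in deleted against 81.2 Mb in positive tumors.

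Combinations differed in which others they bordered along the chromosomes. A run is an unbroken stretch of bins of 1 combination. Runs end where any island list starts or stops, so most flanks (93.6% of 770824) led to a combination that differed by a single mark, which the overlay largely fixes. H3K4me1+H3K4me3+H3K27ac mostly bordered H3K4me1+H3K27ac: its 24377 runs had a median length of 1600 bp, 69.6% of their flanks were H3K4me1+H3K27ac, and 56.3% of the runs had that pair on both sides. H3K4me1+H3K27ac in turn was bordered by H3K4me1 on 38.3% of its flanks and by H3K27ac alone on 22.8%. H3K27ac alone was mostly an edge, since 70.5% of its runs lay between an unmarked stretch and H3K4me1+H3K27ac, and their median length was 600 bp. H3K4me1+H3K4me3 was an edge of another kind, with 69.8% of its runs between H3K4me1 and H3K4me1+H3K4me3+H3K27ac.

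Combinations with H3K27me3 mostly bordered others with H3K27me3, apart from H3K27me3 alone. H3K4me1+H3K4me3+H3K27me3, the bivalent arrangement, had H3K4me1+H3K27me3 on 62.5% of its flanks. H3K4me1+H3K27me3 itself had H3K27me3 alone on 55.1% of its flanks. Bins with all 4 marks bordered H3K4me1+H3K27ac+H3K27me3 on 37.4% of flanks, H3K4me1+H3K4me3+H3K27me3 on 28.7% and H3K4me1+H3K4me3+H3K27ac on 14.4%. Runs of H3K27me3 alone met unmarked bins on 80.1% of their flanks. Islands of H3K27ac and H3K4me3 were joined across gaps of up to 200 bp by the authors and those of H3K4me1 and H3K27me3 across 600 bp, per the file names, and part of these edges can follow from that. With gaps of up to 600 bp closed in the H3K27ac and H3K4me3 lists, a setting added after seeing the data, 69.99% of the flanks of H3K4me1+H3K4me3+H3K27ac were H3K4me1+H3K27ac. H3K4me1+H3K27ac then bordered H3K4me1 on 31.9% and H3K27ac alone on 26.7% of its flanks.

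Marked bins formed 104748 stretches with a median length of 4200 bp. Of these, 56.1% held a single combination, most often H3K27me3 (38564 stretches) or H3K4me1 (13462 stretches). The commonest stretch of more than 1 combination was H3K4me1+H3K27ac between bins of H3K4me1, with 3896 cases. The full order of H3K27ac, H3K4me1+H3K27ac, H3K4me1+H3K4me3+H3K27ac, H3K4me1+H3K27ac and H3K4me1, in either direction, occurred 1201 times.

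**Figure D2:**
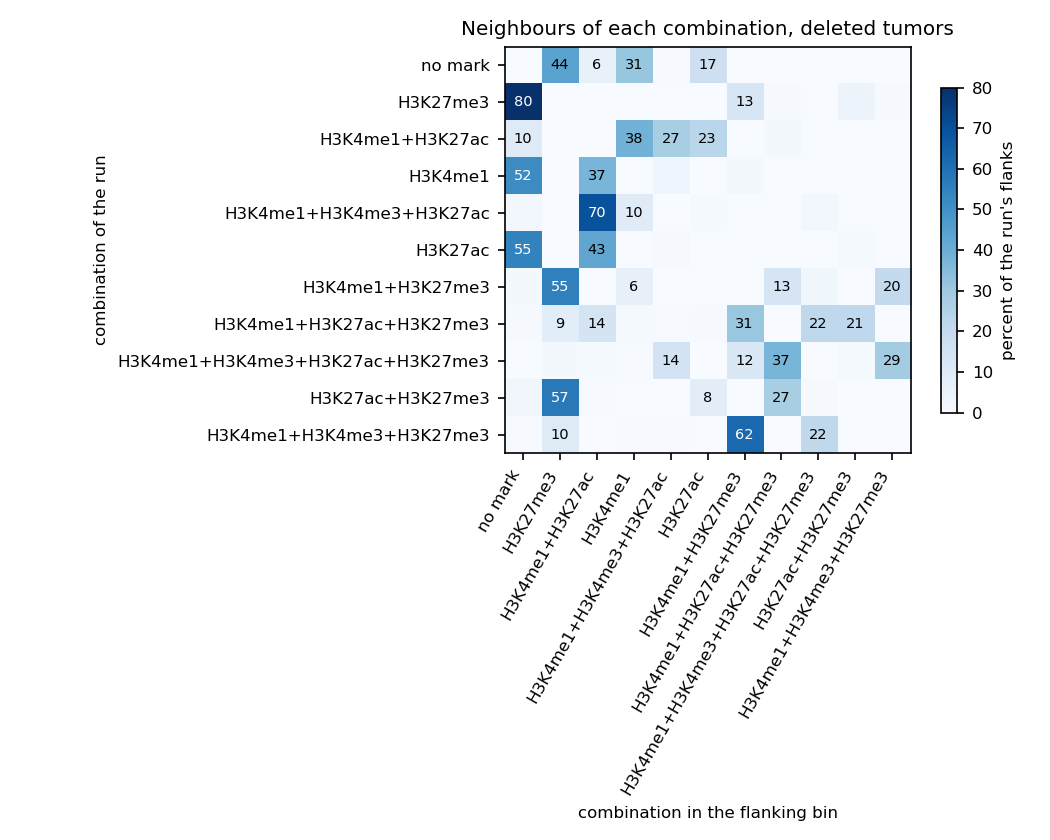
Share of the flanks of each combination's runs (rows) that led to each other combination (columns), in percent, for the 11 longest combinations of Nkx2-1-deleted tumors; shares of at least 5% are printed. H3K4me1+H3K4me3+H3K27ac bordered H3K4me1+H3K27ac on 69.6% of its flanks, and H3K27me3 alone bordered unmarked bins on 80.1%.

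The longest run of each combination gives a concrete place (build mm9). H3K27me3 alone reached 200000 bp at chr11:118636801-118836800, where 98.3% of bins also held H3K27me3 alone in positive tumors and no Nkx2-1 or Foxa1/2 summit lay. H3K4me1+H3K27ac reached 48600 bp at chr8:130968401-131017000, with 5 deleted-tumor Foxa1/2 summits and 7 Nkx2-1 summits. H3K4me1+H3K4me3+H3K27ac reached 20800 bp at chr10:79608001-79628800, with 6 Nkx2-1 summits and no Foxa1/2 summit. All 4 marks together ran for 19200 bp at chr8:123596801-123616000, and 91.7% of those bins held all 4 in positive tumors too. H3K4me1+H3K4me3+H3K27me3 ran for 7200 bp at chr11:23975201-23982400. The longest run of H3K4me1 alone, 51200 bp at chr11:3049001-3100200, lay under an island of 456.8 H3K4me1 reads per kb, against a median of 78.1 over the list. This run held H3K4me1 alone in every bin of positive tumors. Its island was denser than 99.9954% of H3K4me1 islands, and what raised its reads was not tested, so it is not a typical place of this combination. No gene was assigned to these places, because no annotation of this build was used here.

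Read density, the island's reads per kb, separated the combinations beyond presence and absence. The median H3K27ac density was 201 in H3K4me1+H3K4me3+H3K27ac, 103 in H3K4me1+H3K27ac, 72.6 in H3K27ac alone and 56.8 in H3K27ac+H3K27me3. The median H3K4me3 density was 356 in H3K4me1+H3K4me3+H3K27ac, 206 with all 4 marks and 114 in H3K4me1+H3K4me3+H3K27me3. In combinations that differ by H3K27me3 alone, the H3K27ac and H3K4me3 islands were sparser where H3K27me3 was present, except for H3K4me3 in bins with neither H3K4me1 nor H3K27ac. H3K27me3 itself was densest in H3K4me1+H3K4me3+H3K27me3, at a median of 56.1 reads per kb, against 40.3 where it was alone and 40.4 in H3K4me1+H3K27ac+H3K27me3.

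Foxa1/2 summits of deleted tumors, which were not used to define the combinations, followed H3K4me1. Of 14282 summits on chromosomes 1 to 19, 95.2% (94.8 to 95.5) lay in bins with H3K4me1 and 86.4% (85.8 to 87.0) in bins with H3K27ac. Unmarked bins held 502 summits, 3.51%, and bins with H3K27me3 in any combination held 536, 3.75%. Bins with H3K4me1 held 46.1 summits per Mb and those without held 0.325, a ratio of 142.

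Per Mb, H3K4me1+H3K4me3+H3K27ac held 106 summits (103 to 109), H3K4me1+H3K27ac 53.7 (52.4 to 54.9) and H3K4me1 alone 13.0 (12.3 to 13.8). Each of these steps was seen on all 19 chromosomes. H3K27ac alone was nearly empty of Foxa1/2, at 0.961 per Mb (0.639 to 1.39), which is 28 summits in 29.1 Mb. H3K4me3+H3K27ac, which also lacks H3K4me1, was an exception at 49.99 per Mb (35.4 to 68.6), from 38 summits in 0.760 Mb. Unmarked bins held 0.302 (0.276 to 0.330) and H3K27me3 alone 0.261 (0.214 to 0.315), and those intervals overlapped. Since bins of H3K27ac alone were mostly the edges of islands, whole islands were also counted. The 7652 H3K27ac islands that touched no H3K4me1 island covered 11.8 Mb and held 25 Foxa1/2 summits, or 2.12 per Mb (1.37 to 3.12), against 58.2 per Mb in the 53092 that did. H3K4me1 islands that touched no H3K27ac island held 18.6 per Mb (17.4 to 19.97).

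Foxa1/2 summits in H3K4me1+H3K4me3+H3K27ac were concentrated in bins with sparse H3K4me3. When these bins were split into 4 equal parts by the H3K4me3 density of their island, Foxa1/2 summits per Mb were 211 (203 to 220) in the sparsest part, then 96.7, 64.2 and 52.0 (48.0 to 56.2) in the densest. The sparsest part was above the densest on all 19 chromosomes, with a ratio of 4.07, and the density was lower at each step on 16 of them. The densest part, at or above 499.6 H3K4me3 reads per kb, thus held about as many summits per Mb as H3K4me1+H3K27ac (53.7). The sparsest part lay under narrower islands, with a median of 1000 bp against 2800 bp in the densest. Counted per island instead of per Mb, the order was the same: 24.6% (23.8 to 25.5) of the islands in the sparsest part held a Foxa1/2 summit, then 21.0%, 17.8% and 14.1% (13.0 to 15.1). For former Nkx2-1 sites the direction turned with the measure. Per Mb they numbered 299, 221, 217 and 211 from the sparsest to the densest part, with the sparsest above the densest on 18 of 19 chromosomes and a ratio of 1.42. Per island they were found in 34.3%, 43.1%, 57.2% and 55.4%. In positive tumors, the same split gave 243 positive-tumor Foxa1/2 summits per Mb in the sparsest and 77.3 in the densest part, a ratio of 3.14. Nkx2-1 summits there numbered 285 and 177 per Mb, a ratio of 1.61, and both orders were seen on all 19 chromosomes.

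When each island list was cut to its upper 50% by read count, the order of the combinations ended. H3K4me1+H3K4me3+H3K27ac then held 73.3 and H3K4me1+H3K27ac 73.7 summits per Mb. With the upper 50% by reads per kb, the values were 70.0 and 82.7, so the order turned. With the H3K4me3 list alone cut to its upper 50%, the values were closer than 106 and 53.7. They were 72.7 and 66.9 by read count, and 69.5 and 67.8 by reads per kb. No intervals were computed under these cuts, so whether such close values differ beyond counting error was not tested. The split was made, and the cut of H3K4me3 alone was added, after the other values had been seen.

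**Figure D3:**
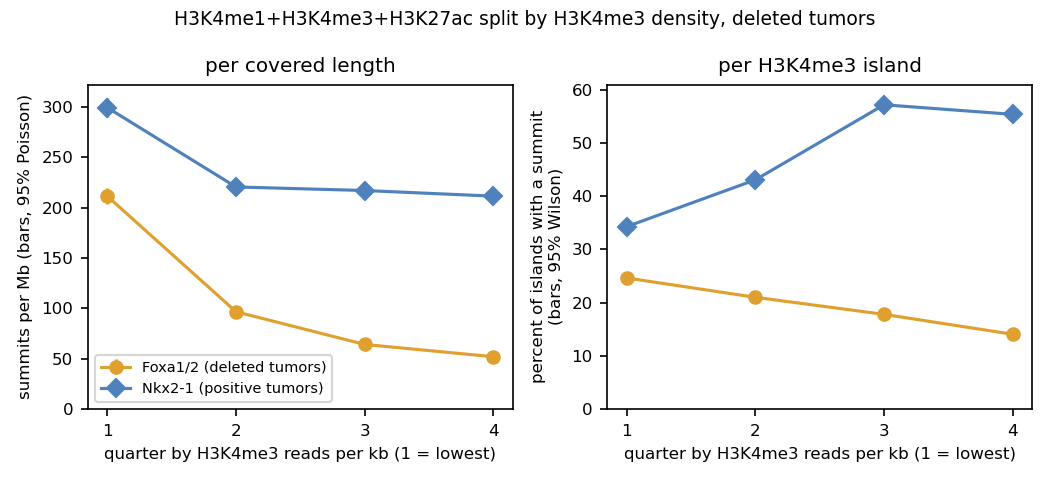
H3K4me1+H3K4me3+H3K27ac bins of Nkx2-1-deleted tumors split into 4 equal parts by the H3K4me3 reads per kb of their island (1 = sparsest). Left, summits per Mb of Foxa1/2 (deleted tumors) and Nkx2-1 (positive tumors); right, percent of H3K4me3 islands with a summit; bars are 95% intervals, mostly smaller than the symbols. Foxa1/2 is at 211 in the sparsest and 52.0 per Mb in the densest part and at 24.6% and 14.1% of islands, while Nkx2-1 is lower per Mb and higher per island in the densest part.

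Bins with H3K27me3 were not uniformly poor in Foxa1/2. Bins with all 4 marks held 24.8 summits per Mb (20.7 to 29.4), H3K4me1+H3K27ac+H3K27me3 held 18.0 (15.1 to 21.3) and H3K4me1+H3K27me3 held 10.8 (9.10 to 12.8). H3K4me1 without H3K27me3 was at 13.0, its interval overlapping the last, and was the higher on 13 of 19 chromosomes. H3K4me1+H3K4me3+H3K27me3 held 18 summits, 4.75 per Mb (2.82 to 7.51). H3K4me3+H3K27me3 held 0 summits in 0.281 Mb, with an interval that reaches 13.1 per Mb.

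H3K4me1+H3K27ac+H3K27me3 held more Foxa1/2 summits in deleted than in positive tumors. In positive tumors, Foxa1/2 summits there numbered 3.91 per Mb (2.60 to 5.65), against 18.0 in deleted tumors, and the deleted-tumor value was higher on all 19 chromosomes. The covered lengths were alike, at 7.16 and 7.49 Mb. The 135 deleted-tumor summits lay in 134 runs on 19 chromosomes, with at most 11 on a single chromosome. Of the 135, 118 had no Foxa1/2 peak at the same place in positive tumors, against 4696 of all 14282 deleted-tumor summits. In positive tumors, 49 of the 135 bins (36.3%) had held H3K27me3 alone, 23 (17.0%) had already held the same 3 marks and 10 (7.41%) had been unmarked. For comparison, of all deleted-tumor bins of this combination, 9.27% had held H3K27me3 alone and 37.6% had already held the same 3 marks. The median H3K27ac density of the combination was 69.5 reads per kb, below the 113 over all H3K27ac bins. Other combinations with H3K27me3 went both ways. Bins with all 4 marks held 24.8 summits per Mb in deleted against 17.4 (13.97 to 21.5) in positive tumors, H3K27ac+H3K27me3 1.87 (0.807 to 3.68) against 0.161 (0.00407 to 0.895) and H3K27me3 alone 0.261 against 0.150 (0.115 to 0.192). H3K4me1+H3K27me3 held 10.8 against 13.3 (10.9 to 16.02) and H3K4me1+H3K4me3+H3K27me3 4.75 against 10.1 (7.58 to 13.3). In H3K4me1 alone the value was lower in deleted tumors, 13.0 against 23.8 per Mb, and so it was in H3K4me1+H3K4me3+H3K27ac, 106 against 154, both on all 19 chromosomes. In H3K4me1+H3K27ac the values were 53.7 and 52.5. The positive-tumor Foxa1/2 list was longer, with 22611 summits, so densities of the lists are not on one scale.

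**Figure D4:**
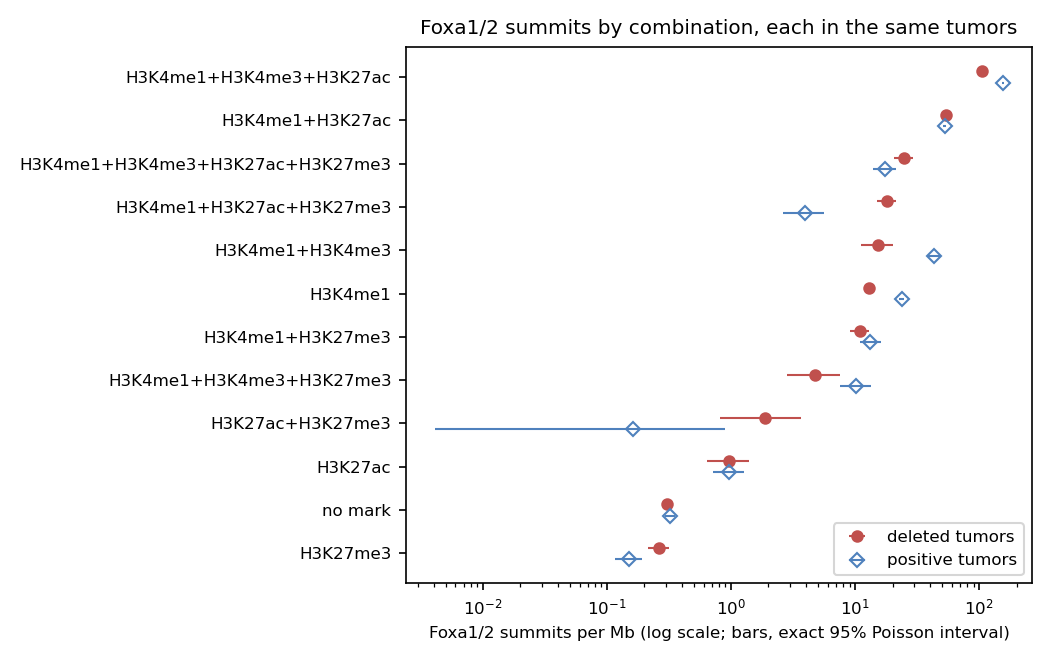
Foxa1/2 summits per Mb (log scale) in each combination of at least 1 Mb, with deleted-tumor summits over deleted-tumor combinations (filled circles) and positive-tumor summits over positive-tumor combinations (open diamonds); bars are exact 95% Poisson intervals. H3K4me1+H3K27ac+H3K27me3 shows 18.0 against 3.91 per Mb, while H3K4me1+H3K27ac is nearly equal at 53.7 and 52.5.

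Foxa1/2 summits present in both tumor types and those found in deleted tumors alone stood in different chromatin. Of 9586 deleted-tumor summits with a positive-tumor peak, 43.4% (42.4 to 44.4) were in H3K4me1+H3K4me3+H3K27ac and 2.20% in unmarked bins. Of 4696 without such a peak, 21.2% (20.1 to 22.4) and 6.20% were. The second set was more often in H3K4me1+H3K27ac, 53.1% against 45.4%, and in H3K4me1 alone, 10.99% against 6.37%. The sets differed in the positive-tumor overlay as well. There, 16.3% of the bins of the second set had been unmarked, against 2.17% of the first, and 34.6% against 27.4% had already held H3K4me1+H3K27ac. H3K4me1+H3K4me3+H3K27ac had been held by 25.7% of the second set and 62.0% of the first. Scores differed between the combinations too. Among the lowest 10% of summits by score, 8.61% were unmarked and 28.1% were in H3K4me1+H3K4me3+H3K27ac, and among the highest 10%, 0.560% and 44.6%.

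The 3 highest-scoring Foxa1/2 summits in unmarked bins lay at chr11:97761253, chr5:111065178 and chr14:17051748 (mm9), and each was unmarked and under a Foxa1/2 peak in positive tumors as well. The 3 highest-scoring summits under H3K27me3 lay at chr9:61187258, chr13:97733014 and chr7:25112505. The summit on chromosome 13 was in H3K4me1+H3K27ac+H3K27me3 in deleted tumors, while its bin held H3K27me3 alone and no Foxa1/2 peak in positive tumors. The other two had lain in active combinations without H3K27me3 and under a Foxa1/2 peak.

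The bins that Nkx2-1 had occupied in positive tumors were largely under active marks in tumors that lack the factor. Its absence rests on the labels, since Nkx2-1 binding in deleted tumors was not analysed here. The tumor types are different animals, so words such as kept, stayed or became compare the same place between lists and not within a tumor. Of 29265 Nkx2-1 summits, 78.4% (77.9 to 78.8) lay under H3K27ac in deleted tumors, against 90.6% in positive tumors. H3K4me1 was present at 91.4% against 96.2%, and H3K4me3 at 42.1% against 66.1%. Unmarked bins made up 6.88% (6.59 to 7.17) against 1.12%, higher on all 19 chromosomes. H3K27me3 in any combination was present at 2.48% (2.31 to 2.66) against 1.18%, also higher on all 19. H3K27me3 as the only mark was found at 129 former sites, against 32.

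By combination, 39.4% (38.8 to 39.9) of the former Nkx2-1 sites held H3K4me1+H3K4me3+H3K27ac in deleted tumors, against 61.6% in positive tumors. H3K4me1+H3K27ac held 36.6% against 26.0%, and H3K4me1 alone held 12.7% against 6.07%. The same combination in both tumor types was found at 58.3% (57.8 to 58.9). Per covered length, former sites were densest in H3K4me3+H3K27ac without H3K4me1, at 326 per Mb (287 to 369), then in H3K4me1+H3K4me3+H3K27ac at 237 (233 to 241). No former site lay in H3K27ac+H3K27me3, and with 0 of 29265 the Wilson interval reaches 0.0131%.

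The change at former Nkx2-1 sites was set beside that of all bins. Of 26514 summits under H3K27ac in positive tumors, 14.8% (14.4 to 15.2) lacked it in deleted tumors, against 32.3% of all bins under positive-tumor H3K27ac. The Nkx2-1 share was the lower on all 19 chromosomes. For H3K4me1 the shares were 6.94% and 21%, and for H3K4me3 36.9% and 40.8%. New H3K27me3 appeared at 1.49% of the summits that lacked it, against 4.32% of all such bins. A marked bin became unmarked at 6.08% of summits, against 20.6% of all marked bins. A change to any other combination, loss of every mark included, was found at 41.9% of summits, against 36.2% of all marked bins. Summits lie near the centre of islands and all bins include the edges, so these backgrounds do not match in position. They do not match in the positive-tumor combination either.

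Starting from the same positive-tumor combination, the shares lay closer together. From H3K4me1+H3K4me3+H3K27ac, 60.3% (59.6 to 61.0) of Nkx2-1 summits stayed in it, against 55.8% of all bins and 61.0% (59.3 to 62.6) of the positive-tumor Foxa1/2 summits that had no Nkx2-1 peak. The commonest change was the loss of H3K4me3 alone, at 31.8% of summits and 33.0% of bins. From H3K4me1+H3K27ac, 62.3% (61.3 to 63.4) of Nkx2-1 summits stayed, against 58.1% of bins and 69.4% (67.7 to 70.9) of Foxa1/2 summits without Nkx2-1. Here 23.6% of Nkx2-1 summits and 20.0% of bins kept H3K4me1 without H3K27ac. H3K27ac in any combination was kept at 65.2% (64.1 to 66.3) of these Nkx2-1 summits, 65.7% of bins and 72.8% (71.2 to 74.3) of Foxa1/2 summits without Nkx2-1. From H3K4me1+H3K4me3+H3K27ac it was kept at 93.3% (92.9 to 93.7), 91.7% and 94.1% (93.3 to 94.9) in the same sequence. From H3K4me1 alone, 45.6% (43.3 to 48.0) of Nkx2-1 summits became unmarked, against 41.1% of bins and 33.9% (31.3 to 36.7) of Foxa1/2 summits without Nkx2-1. From H3K4me1 alone to H3K27me3 in any combination went 5.58% (4.60 to 6.74) of Nkx2-1 summits, 2.98% of bins and 2.63% (1.85 to 3.73) of Foxa1/2 summits without Nkx2-1. From H3K4me1+H3K27ac these shares were 0.749% (0.578 to 0.969), 2.25% and 0.440% (0.262 to 0.737) in the same sequence. From H3K4me1+H3K4me3+H3K27ac they were 1.17% (1.02 to 1.34), 2.65% and 0.779% (0.536 to 1.13). From both of these combinations the Nkx2-1 share was below that of bins. It was above that of Foxa1/2 summits without Nkx2-1, with overlapping intervals.

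The share of places that kept H3K27ac differed with how dense it had been in positive tumors. Among positive-tumor H3K4me1+H3K27ac bins, in the sparsest of 4 parts by H3K27ac reads per kb, 29.1% (26.97 to 31.4) of 1617 Nkx2-1 summits were under H3K27ac in deleted tumors. All bins of that part stood at 39.0%, and 998 Foxa1/2 summits without Nkx2-1 at 49.8% (46.7 to 52.9). The Nkx2-1 share was below that of all bins on 18 of 19 chromosomes and below that of the Foxa1/2 summits on all 19. In the densest part the order was different, with 92.3% (90.9 to 93.4) of Nkx2-1 summits, 84.8% of bins and 92.2% (89.8 to 94.1) of Foxa1/2 summits without Nkx2-1. The sparsest part of H3K4me1+H3K4me3+H3K27ac showed 77.9% (76.6 to 79.1), 80.6% and 85.7% (83.6 to 87.6) in the same sequence. This split was added after the shares over all bins had been seen.

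**Figure D5:**
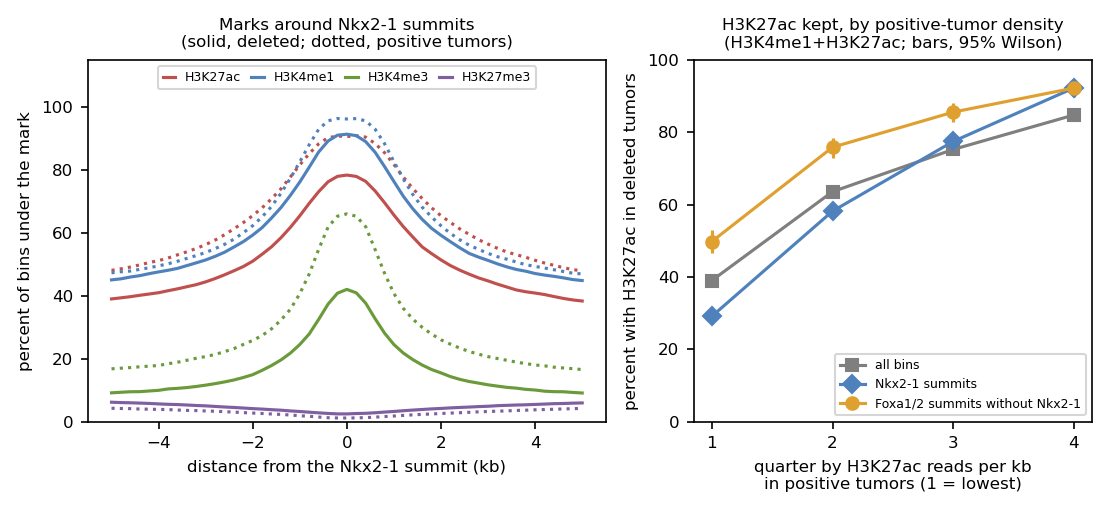
Left, percent of bins under each mark by distance from 29250 Nkx2-1 summits (kb), in deleted (solid) and positive tumors (dotted); right, percent of positive-tumor H3K4me1+H3K27ac places under H3K27ac in deleted tumors, by their positive-tumor H3K27ac density, with 95% Wilson bars for summits. H3K27ac is at 78.4% at the summit bin in deleted and 90.6% in positive tumors, and in the sparsest part Nkx2-1 summits stand at 29.1%, below all bins at 39.0%.

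Around the summits, H3K27ac, H3K4me1 and H3K4me3 were lower in deleted than in positive tumors at each distance up to 5000 bp, and H3K27me3 was higher. H3K27ac was at 78.4% at the summit bin, 65.4% and 65.7% at 1000 bp before and after it and 39.0% at 5000 bp before it. The positive-tumor values there were 90.6%, 81.6% and 81.7%, and 48.1%. H3K4me3 was at 42.1% at the summit and 9.17% at 5000 bp before it, against 66.1% and 16.8%. H3K27me3 had its low point at the summit in both tumor types, at 2.47% in deleted and 1.17% in positive tumors, and reached 6.19% and 4.27% at 5000 bp before it.

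Former Nkx2-1 sites differed by what Foxa1/2 did there. At the 5238 summits with a Foxa1/2 peak in both tumor types, H3K27ac was present in deleted tumors at 96.2% (95.7 to 96.7). At the 8725 with a Foxa1/2 peak in positive tumors only, it was present at 70.7% (69.7 to 71.6), lower on all 19 chromosomes. The positive-tumor values were 97.8% and 90.01%. At the 14905 summits with no Foxa1/2 peak in either, H3K27ac was present at 76.1% (75.4 to 76.8), and at the 397 with a peak in deleted tumors only, at 97.7% (95.7 to 98.8). In positive tumors these last sets stood at 88.2% and 97.0%. In deleted tumors, sites with Foxa1/2 in positive tumors only were thus below sites with no Foxa1/2, on 18 of 19 chromosomes. H3K4me3 showed the same order in deleted tumors, at 25.6% against 47.4%, and stood at 61.3% against 64.3% in positive tumors. H3K4me1 alone was found at 20.2% of the sites with positive-tumor Foxa1/2 only, 11.9% of those with none and 3.28% of those with Foxa1/2 in both. H3K27me3 in any combination was found at 1.97%, 3.35% and 0.955%, and unmarked bins at 7.03%, 9.33% and 0.172%. These sets also differed in positive tumors. There, in the same sequence, H3K4me1 alone was at 7.28%, 7.15% and 1.28% and H3K27me3 at 0.905%, 1.61% and 0.420%. Unmarked bins were at 0.401%, 1.91% and 0.115%.

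High-scoring Nkx2-1 sites were more often marked than low-scoring sites, in deleted and in positive tumors alike. From the lowest to the highest 10% by score, the unmarked share in deleted tumors went from 11.4% to 3.28% and the H3K27ac share from 71.6% to 82.8%. In positive tumors these shares went from 3.11% to 0.342% and from 84.7% to 94.2%. In the highest 10%, H3K4me1+H3K4me3+H3K27ac was held by 33.4% in deleted against 70.3% in positive tumors, while in the lowest 10% the shares were 36.5% and 51.2%. The 8 score groups in between held it at 37.5% to 42.4% in deleted tumors. H3K4me1+H3K27ac was at 48.1% in the highest 10% and 32.6% in the lowest.

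The 3 highest-scoring former sites that were unmarked in deleted tumors lay at chr19:6178484, chr19:53996644 and chr16:32479722 (mm9), and each had held H3K4me1 alone in positive tumors. The 3 highest under H3K27me3 lay at chr3:107518983, chr9:61681240 and chr17:39980500. The site on chromosome 9 changed from H3K4me1 alone to H3K27me3 alone, and had a Foxa1/2 peak in positive tumors only. The site on chromosome 3 changed from H3K4me1+H3K4me3 to H3K4me1+H3K27me3. The site on chromosome 17 held H3K4me1+H3K4me3+H3K27me3 in both tumor types. Its H3K4me1 and H3K27me3 islands had 912 and 883 reads per kb, against list medians of 78.1 and 36.1. They were denser than 99.9985% and 99.998% of the islands of these marks. What raised the reads of both marks there was not tested, so neither the peak nor the combination at this site can be taken at face value. The 3 highest under H3K4me1+H3K4me3+H3K27ac, at chr16:5136615, chr7:136815441 and chr7:87944392, held those marks and a Foxa1/2 peak in both tumor types. At the first 2 of them the H3K4me3 island was sparse, with 32.9 and 49.0 reads per kb against a list median of 118, while the H3K27ac islands had 273 and 322 reads per kb.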

How the data were processed

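Per the submitters' processing notes, the authors used Bowtie, MACS 1.4.2, SICER 1.1 and build mm9; the sources used here do not give the role of each. Each deposited island carries a read count, not scaled for depth, and its file name gives a window of 200 bp, an FDR of 0.01 and the gap. Each deposited peak carries a score of at least 60 and a summit. The 2 files of each group were identical and used as 1 list, and the 9 inputs were not used here. No column held another sample.

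Island ends were read as last bases, which put every island on the grid. Chromosome lengths of mm9 were not at hand, so the span runs from the first to the last bin under any of the 8 island lists of both tumor types. A summit took the combination of its bin. Island density was the read count divided by length; counts and scores were compared within a list only. Named places are the longest run per combination (6 of the 15 are printed) and the 3 highest-scoring summits per kind. Python 3.11.15, numpy 2.4.6, scipy 1.17.1 and matplotlib 3.10.9 were used, and the overlay code was tested on simulated data. The combinations, regions and comparisons were chosen with earlier results of these data known.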

Additional observations from a re-analysis of the deposited data

How the results depend on the processing

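Each mark and factor was 1 merged list, so there is no alternative that leaves out a replicate. No paired analysis was possible because both files of each group hold the same merged list. Of 89 values recomputed for 12 results, 40 stayed within 1.5 times (lengths) or within the main 95% interval (densities and shares). Depth limits which weak islands were called. The 2 shares of places that lacked positive-tumor H3K27ac in deleted tumors, and their alternatives, were chosen after seeing the data.

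The overlap of H3K4me3 with H3K27me3 was 5.51 Mb when island lists were cut to their upper 50% by read count, 4.69 Mb when cut by reads per kb and 14.8 Mb in 1000 bp bins. Under the same 3 settings, Foxa1/2 summits per Mb were 73.7, 82.7 and 44.8 in H3K4me1+H3K27ac and 73.3, 70.0 and 84.6 in H3K4me1+H3K4me3+H3K27ac, and 1.00 and 0.980 in unmarked bins under the first 2. With the H3K4me3 list alone cut by count and by reads per kb, added after seeing the data, they were 66.9 and 67.8 in H3K4me1+H3K27ac and 72.7 and 69.5 in H3K4me1+H3K4me3+H3K27ac. Islands of at least 1000 bp gave 57.5 and 99.8 in the 2 marked combinations. The upper 50% of the Foxa1/2 list by score gave 27.7, 58.5 and, in unmarked bins, 0.0668.

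Nkx2-1 summits with H3K27ac in deleted tumors came to 68.0% and 66.6% with the upper 50% of islands by count and by density, 77.4% with islands of at least 1000 bp, 80.04% in 1000 bp bins, 80.9% with the upper 50% of summits by score and 80.4% with a mark within 500 bp. In the same order, unmarked summits were 19.8%, 21.2%, 7.41%, 6.42%, 4.85% and 6.35%. Summits with H3K27me3 were 1.87%, 1.64%, 3.25%, 2.02% and 3.35%, islands of at least 1000 bp left out.

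Summits under positive-tumor H3K27ac that lacked it in deleted tumors were 19.99% and 20.1% with the upper 50% of islands by count and density, 15.5% with islands of at least 1000 bp and 14.1% with the upper 50% of summits. All bins gave 34.2%, 35.1% and 32.6% under the first 3, 31.9% with closed gaps, 32.4% with chromosome X and 29.9% in 1000 bp bins. With positive lists cut by reads per kb to the length of the deleted lists, the shares were 10.0% of summits and 23.2% of bins. The summit share was the lower under every setting that gave both, but none of these settings matched summits and bins by positive-tumor combination.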

Other observations

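Chromosome X was left out of the combinations. There, the share under H3K27me3 islands was 8.87% for deleted tumors and 17.2% for positive tumors, while on each of chromosomes 1 to 19 the mark covered between 14.2% and 28.5% in deleted and between 14.6% and 28.5% in positive tumors. H3K27ac covered 2.25% of chromosome X in deleted and 3.05% in positive tumors. Each of these groups held 1 male and 1 female mouse per the labels, and how many reads of each entered the merged lists was not analysed here.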
